A study of Mus musculus with 6 samples.

Results

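The genes described here are 59 members of the cell cycle and DNA replication machinery: 27 that act in S phase, 26 that act in mitosis, and 6 G1 cyclins, kinases and CDK inhibitors. They were chosen by name, and a member counted as listed when the authors' deposited table of gene changes held a row under that name (in capitals there, as CDKN2A, CDK2 or MKI67; mouse symbols are used from here on). That table lists 16381 gene names and holds 36 of the 59 members. The other 23 have no row there under those names, and for Kif23 and Cdc45 alone among them a row under an older name is given below. The p-values of that table stop at 0.462, and why a given member has no row is not known.

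The samples were 6 mouse cutaneous squamous cell carcinomas, profiled on Illumina bead arrays, on which labelled cRNA binds probes for single transcripts. All tumours came from cells that carried p53+/-, p63L/L and K14-CreER on a mixed c57BL/6 - CD1 background: 1 functional allele of the tumour suppressor gene p53, loxP-flanked alleles of p63, and a tamoxifen-activated Cre recombinase driven by the keratin 14 promoter. The carcinogen DMBA (7,12-dimethylbenz[a]anthracene), given weekly, had induced a primary tumour, whose cells were transplanted into immunodeficient Nude mice and grew for 13 days. Hosts then received tamoxifen for 5 days (p63-excised, 3 tumours) or vehicle for 5 days (p63-intact, 3 tumours), and the tumours were taken 1 to 3 days after the last dose. The drug and the excision therefore cannot be told apart, Cre acts in keratin 14-expressing cells alone, and host stroma, vessels and immune cells other than the T cells that Nude mice lack are part of each whole-tumour RNA. The labels give no age and do not say whether tumours grew in separate mice, so the p-values measure the spread between these tumours, which may be partly technical.

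Proliferating cells pass through S phase, in which E2F transcription factors switch on the genes that license origins, make deoxynucleotides and copy DNA, and then through G2 and mitosis, in which a later set of genes, controlled by the MMB and FOXM1 complexes, builds the spindle and separates the chromosomes. CDK inhibitors and the retinoblastoma protein hold E2F in check. p63, the transcription factor whose gene was the target of excision here, is known to sustain proliferation of basal keratinocytes and to repress CDK inhibitor genes, Cdkn2a among them. The comparison asks how the levels of these genes differed between tamoxifen-treated, p63-excised tumours and vehicle-treated ones.

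Trp63, the gene of p63, stood at -0.25 in log2 in the authors' deposited table (p = 0.0639, adjusted p = 0.751). Where its probe lies relative to the excised exons is not given, so this value is no check of the labels. How completely p63 was excised is not known from these data. The files pair no probe with a gene, so no value per tumour can be given for a member, and whether the tumours of the groups overlapped for a given gene could not be seen. For each member the authors' deposited table gives a log2 change (p63-excised minus p63-intact), a mean log2 level over the arrays, a t score and an unadjusted p. A standard error (SE) was taken as the change divided by its t, and 95% intervals use it and are not adjusted for the number of genes. On the arrays, 13757 to 16096 of 45281 probes were detected at a p under 0.05 in the p63-intact tumours and 11964 to 14520 in the p63-excised tumours. These ranges overlap only through the p63-excised array at 14520. The other p63-excised arrays, at 11964 and 13214, lay below every p63-intact array.

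S phase and mitotic genes are known to differ in their promoters. RefSeq promoter windows (mouse build GRCm38.p6, 300 bases each, 250 before and 50 after a transcription start) were found for 49 of the 59 members, 59 windows in all, some genes having several starts. Both strands were searched. An E2F site was any of 4 words: the sequence TTCCCGC, its variant with the middle letters changed, TTGGCGC, and the mixed forms of these, which are TTCGCGC and, in the other order, TTGCCGC. The cell cycle homology region (CHR) element, which MMB binds, was searched as TTTGAA and in its rarer form as TTCGAA. The box that NF-Y binds was searched as CCAAT, which can overlap an E2F word. The bases before the start are printed for the S phase and mitotic members with the smallest p that have a window, as examples of both promoter classes, with matches in capitals.
Cdk2 (chr10:128705052-128705301, minus strand): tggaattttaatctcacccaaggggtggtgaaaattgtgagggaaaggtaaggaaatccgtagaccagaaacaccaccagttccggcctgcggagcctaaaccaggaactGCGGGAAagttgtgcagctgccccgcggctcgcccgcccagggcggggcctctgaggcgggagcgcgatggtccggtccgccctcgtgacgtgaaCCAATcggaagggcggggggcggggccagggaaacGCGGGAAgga
Rrm2 (chr12:24708004-24708253, plus strand): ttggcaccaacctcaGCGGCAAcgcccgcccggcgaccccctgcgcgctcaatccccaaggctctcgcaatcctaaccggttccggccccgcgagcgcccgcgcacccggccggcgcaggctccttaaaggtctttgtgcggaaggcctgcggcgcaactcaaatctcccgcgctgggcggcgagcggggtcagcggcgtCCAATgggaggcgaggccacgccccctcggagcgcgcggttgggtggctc
Mki67 (chr7:135716451-135716629, minus strand): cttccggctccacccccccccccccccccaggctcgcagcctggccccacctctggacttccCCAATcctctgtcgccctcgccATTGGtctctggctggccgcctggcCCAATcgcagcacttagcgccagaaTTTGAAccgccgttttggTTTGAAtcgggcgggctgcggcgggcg
Ccnb1 (chr13:100786487-100786736, minus strand): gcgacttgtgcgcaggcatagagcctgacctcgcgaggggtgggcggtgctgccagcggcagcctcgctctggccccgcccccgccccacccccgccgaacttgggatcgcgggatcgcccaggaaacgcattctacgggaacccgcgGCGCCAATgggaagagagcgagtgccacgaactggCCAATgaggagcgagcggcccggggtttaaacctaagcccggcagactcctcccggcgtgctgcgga

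The Mki67 stretch holds 2 CHR elements and 3 CCAAT boxes, a layout known from mitotic genes, and no E2F match, while its whole window holds 1 E2F match in the bases not printed. The Cdk2 stretch has 2 E2F matches and 1 CCAAT box and no CHR match (the whole window holds 3 E2F matches), and it overlaps the annotated span of the neighbouring gene Pmel. The Rrm2 stretch has 1 E2F match and 1 CCAAT box. The Ccnb1 stretch has 2 CCAAT boxes, and its only E2F match overlaps 1 of them. Though Ccnb1 is a mitotic gene, neither this stretch nor its whole window holds a CHR match. The Mki67 stretch is 179 bases long, because the bases nearer to this start lie within the gene as annotated from another start.

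Over all S phase members, 19 of 29 windows (65.5%) held an E2F match, against 3 of 22 (13.6%) over mitotic members and 9.57% of all 32851 windows in the RefSeq table. An E2F match that does not overlap a CCAAT box was held by 62.1% of S phase windows, 9.09% of mitotic windows and 9.21% of all windows. CHR elements had the opposite split: 17 of 22 mitotic windows (77.3%) held one, against 5 of 29 S phase windows (17.2%) and 19.2% of all windows. CCAAT boxes were found in 86.4% of mitotic and 62.1% of S phase windows, against 37.4% of all. These shares describe letters in windows and not binding, and they do not depend on the arrays.

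**Figure D1:**
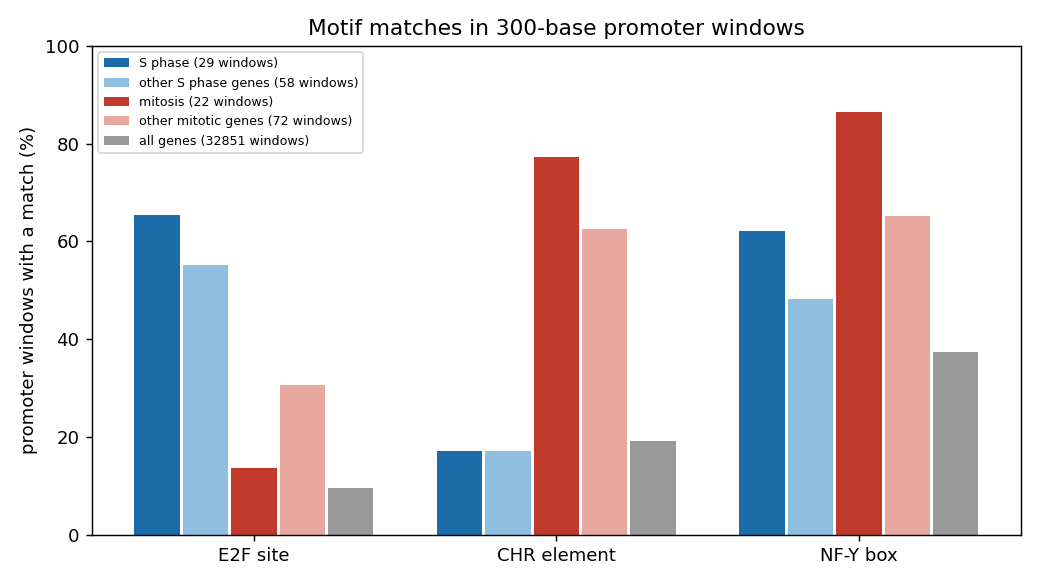
Share of 300-base RefSeq promoter windows (y axis, percent) that hold an E2F site, a CHR element or an NF-Y box (the CCAAT box), for S phase and mitotic members, for other S phase and mitotic genes, and for all genes (bars). S phase members stand highest for E2F sites at 65.5% and mitotic members highest for CHR elements at 77.3%, against 9.57% and 19.2% of all windows.

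No member passed the adjusted test. The p column of the authors' deposited table was adjusted for all 45281 probes of the array (Benjamini-Hochberg). None of 36 listed members was then called at 0.05, beside 1.16% of all listed entries (0.659% higher and 0.501% lower). Before adjustment, 9 members had a p under 0.05. Those 9 members had 7 negative and 2 positive changes in the authors' deposited table, which is 25.0% of those listed beside 19.9% of all entries by that same p (10.6% lower and 9.31% higher). With the 16381 listed entries taken as all tests, Cdkn2a and Cdk2 were below 0.05, beside 2.97% of all entries of the authors' deposited table. Since that table stops at a p of 0.462, its entries were kept by their p, so this adjustment is too lenient and is given only as a lower bound on the adjusted p. All adjusted p-values were computed here from its p column.

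Cdkn2a had the largest change of any member and Cdk2 the smallest p of any S phase or mitotic member. Cdkn2a, which encodes the CDK4 and CDK6 inhibitor p16INK4a and, from another first exon, the p53 activator p19ARF, was 1.57 higher in log2 in the p63-excised tumours in the authors' deposited table, a fold of 2.96 (SE 0.24, 95% interval 0.99 to 2.15, adjusted p = 0.0724). Adjusted here over the listed entries alone, its p was 0.0262. The sources used here do not say which of its transcripts the row measures. Their starts lie apart on chromosome 4, and the stretches before each are shown because the row cannot tell them apart, with the same capitals as above.
Cdkn2a, upstream start (chr4:89294620-89294869, minus strand): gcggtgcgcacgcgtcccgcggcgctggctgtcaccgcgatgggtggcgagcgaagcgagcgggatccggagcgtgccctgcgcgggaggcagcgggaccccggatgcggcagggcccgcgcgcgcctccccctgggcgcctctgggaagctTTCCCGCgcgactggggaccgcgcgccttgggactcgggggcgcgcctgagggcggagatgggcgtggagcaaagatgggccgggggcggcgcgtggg
Cdkn2a, downstream start (chr4:89282193-89282442, minus strand): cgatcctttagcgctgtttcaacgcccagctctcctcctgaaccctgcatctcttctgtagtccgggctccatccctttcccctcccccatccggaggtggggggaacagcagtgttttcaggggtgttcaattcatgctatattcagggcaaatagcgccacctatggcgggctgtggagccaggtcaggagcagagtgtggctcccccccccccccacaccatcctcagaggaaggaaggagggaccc

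The upstream start, that of p19ARF, has 1 E2F match in these bases, and the downstream start, that of p16INK4a, has no match to any of the motifs in them, while its whole window holds 1 CCAAT box in the bases not printed. These sequences come from the reference and do not show which transcript the tumours held.

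The other CDK inhibitors had smaller values. Outside the members, Cdkn1c was at 0.77 (p = 0.0377), Cdkn1a at 0.23 (p = 0.205) and Cdkn2d at -0.28 (p = 0.0764) in the authors' deposited table. The members among them were Cdkn2c and Cdkn1b. Cdkn2c, encoding p18INK4c, stood at 0.24 in log2 in the authors' deposited table (SE 0.11, p = 0.0746). Cdkn1b, encoding p27KIP1, was at -0.06 in the authors' deposited table (p = 0.28) and its mean log2 level, 4.84, was close to the floor of that table (4.62), which leaves little room for a fall. Of the D cyclins, which carry growth signals to CDK4 and CDK6, Ccnd3 was at 0.33 (p = 0.121) and Ccnd2 at -0.29 (p = 0.196) in the authors' deposited table. Cdk4 itself has no row. The interval of each of these 4 genes included 0.

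Among S phase regulators, Cdk2, the kinase partner of cyclins E and A, stood at -0.45 in log2 in the authors' deposited table, a fold of -1.37 as that table writes a fall (SE 0.08, 95% interval -0.65 to -0.25, adjusted p = 0.121). Adjusted here over the listed entries alone, its p was 0.0438, and its mean log2 level was 5.99 in the authors' deposited table. E2f1, the S phase transcription factor, was at -0.26 (p = 0.123) and Cdc25a, the phosphatase that activates CDK2, at -0.11 (p = 0.247) in the authors' deposited table. All 3 listed regulators were thus negative, 1 of them with an interval that left out 0. Ccne1, Ccne2 and E2f2 have no row.

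Origin licensing and replication fork genes had changes of at most 0.26 in size under their own names in the authors' deposited table. The MCM proteins form the hexamer that becomes the replicative helicase, and 3 of its 6 subunits are listed. Mcm4 was at -0.26 in the authors' deposited table (SE 0.12, p = 0.0602), Mcm5 at -0.21 (p = 0.37) and Mcm6 at -0.17 (p = 0.305). Gins2, a subunit of the active helicase, was at -0.11 (p = 0.151) and Cdc6, which loads MCM, at 0.06 (p = 0.3, mean log2 level 4.85) in the authors' deposited table. A second row under an older name of Gins2 was at -0.29 (p = 0.0853) in the authors' deposited table. Mcm2, Mcm3, Mcm7, Cdt1 and Cdc45 have no row under those names, and the older name Cdc45l was at -0.14 (p = 0.145) in the authors' deposited table. None of these rows had a p under 0.05 before adjustment.

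Of the enzymes that finish Okazaki fragments, the flap nuclease gene Fen1 was at -0.35 in the authors' deposited table (SE 0.14, 95% interval -0.69 to -0.01, p = 0.0431, adjusted p = 0.662). The DNA ligase gene Lig1 had the opposite sign, at 0.13 in the authors' deposited table (p = 0.0896). The sliding clamp gene Pcna and the polymerase and primase genes Pola1, Pole and Prim1 have no row. Uhrf1, which recruits the maintenance DNA methyltransferase to replicated DNA, had the most negative change of any member, -0.61 in the authors' deposited table (SE 0.17, 95% interval -1.02 to -0.20, p = 0.0102, adjusted p = 0.353).

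The nucleotide supply genes split. The ribonucleotide reductase subunits work as one enzyme, yet Rrm2, its S phase subunit, had a positive change of 0.39 in the authors' deposited table (SE 0.10, 95% interval 0.15 to 0.63, p = 0.00648, adjusted p = 0.285). Rrm1, the large subunit, was at -0.33 in the authors' deposited table (SE 0.15, 95% interval -0.68 to 0.02, p = 0.0594). Their intervals do not overlap, but the difference itself was not tested, since no value per tumour can be paired with either name. Tyms, encoding thymidylate synthase, was at -0.22 in the authors' deposited table (p = 0.108), and Tk1 has no row.

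In mitosis, the largest negative changes were those of the proliferation antigen and the spindle checkpoint. Mki67, encoding the Ki-67 antigen that coats mitotic chromosomes, was at -0.54 in the authors' deposited table (SE 0.15, 95% interval -0.90 to -0.18, p = 0.00967, adjusted p = 0.345). Top2a, encoding the topoisomerase that untangles sister chromatids, was at -0.28 in the authors' deposited table (SE 0.20, p = 0.211). Both of these chromatin genes were negative, and the interval left out 0 for Mki67 alone.

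The spindle checkpoint holds anaphase until every chromosome is attached. Its genes Mad2l1 and Bub1b were at -0.54 (SE 0.25, p = 0.0673) and -0.47 (SE 0.16, 95% interval -0.85 to -0.09, p = 0.0234) in the authors' deposited table. Ttk, encoding the checkpoint kinase MPS1, was at -0.09 (p = 0.232) and Bub1 at 0.10 (p = 0.19) in the authors' deposited table, both dim, with mean log2 levels of 4.81 and 4.78. Cdc20, the activator of the anaphase-promoting complex, has no row.

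Mitotic kinases and cyclins did not share a sign. Ccnb1, encoding cyclin B1, was at -0.43 in the authors' deposited table (SE 0.14, 95% interval -0.77 to -0.09, p = 0.021), and Aurkb, the kinase of the chromosomal passenger complex, at -0.40 (SE 0.13, 95% interval -0.70 to -0.10, p = 0.0165). Aurka, the centrosome kinase, was at -0.24 (SE 0.18, p = 0.234) and the phosphatase gene Cdc25c at -0.08 (p = 0.434) in the authors' deposited table. Plk1, encoding the polo-like kinase of mitotic entry, stood apart with a positive change of 0.35 in the authors' deposited table (SE 0.19, 95% interval -0.09 to 0.79, p = 0.102). Cdk1, Ccna2, Ccnb2 and Cdc25b have no row.

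Motor, spindle and centromere genes had changes of at most 0.28 in size under their own names in the authors' deposited table. The kinesin gene Kif11 (-0.18), the spindle assembly factor gene Tpx2 (-0.17), the midzone gene Prc1 (-0.15) and Nusap1 (-0.13) were all negative in the authors' deposited table, with p from 0.206 to 0.338. Cenpa, the centromeric histone gene, was at -0.28 (p = 0.227) and Cenpe, a kinetochore motor gene, at 0.18 (p = 0.342) in the authors' deposited table. Kif20a, Kif23, Cenpf and Birc5 have no row under those names. An older name of Kif23, Knsl5, does have one, at 0.95 in the authors' deposited table (p = 0.0384, adjusted p = 0.628, mean log2 level 7.08), more positive than any other S phase or mitotic member. Kif23 encodes a kinesin of cytokinesis.

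**Figure D2:**
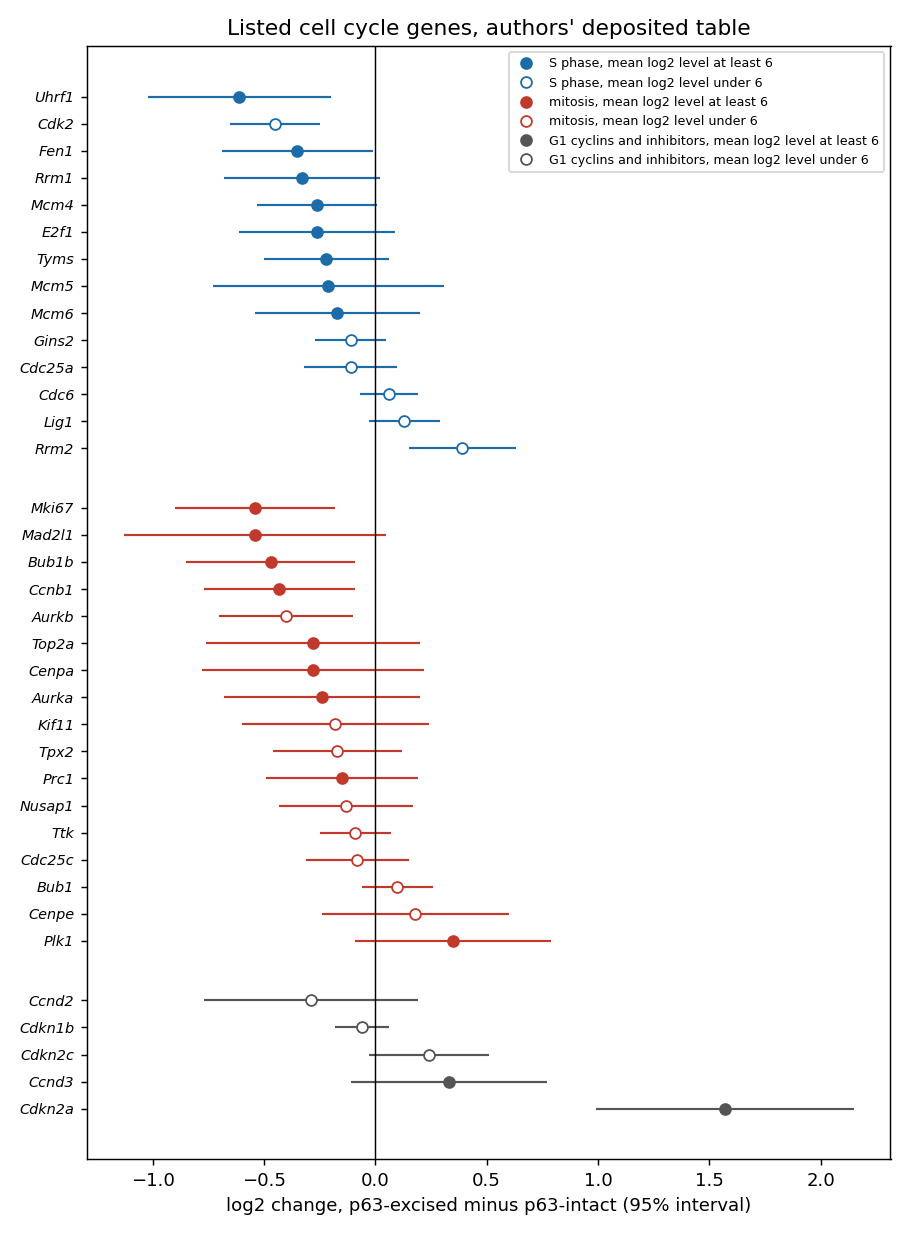
Log2 change, p63-excised minus p63-intact (x axis), of each of 36 listed members, from the authors' deposited table, with its 95% interval (line); filled points have a mean log2 level of at least 6, open points one under 6. Most S phase and mitotic genes lie left of 0 with intervals that include it, and 6 lie to the right, Rrm2 and Plk1 farthest. Cdkn2a stands at 1.57.

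As lists, 11 of 14 listed S phase members and 14 of 17 listed mitotic members had a negative change in the authors' deposited table, with medians of -0.215 and -0.18. Over all listed entries of the authors' deposited table the share of negative changes was 49.0% and the median 0.05. Of the 5 listed G1 cyclins and inhibitors 2 were negative in the authors' deposited table, with a median of 0.24. The sign was one-sided but the sizes were small: no S phase or mitotic member listed under its own name reached a 2-fold change in the authors' deposited table, the largest being 0.61 in log2. Setting members without a row to a change of 0 gave medians of 0 for S phase and -0.085 for mitosis.

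Of the 6 S phase and mitotic genes with positive changes, all but Plk1 had a mean log2 level under 6 in the authors' deposited table. At a mean log2 level of at least 6, 8 of 8 S phase and 8 of 9 mitotic members were negative in the authors' deposited table, Plk1 being the exception, beside 51.9% of 3159 entries at that level. Their medians there were -0.26 and -0.28, and that of all entries at that level was -0.11 in the authors' deposited table. Below that level 9 of 14 were negative in the authors' deposited table. Counting Knsl5 as Kif23 makes the mitotic count at that level 8 of 10. At a level of at least 6, 5 of the 17 S phase and mitotic members were below 0.05 in the p column of the authors' deposited table. That is a smaller share than the 43.7% of entries at that level in either direction. All 5 were lower, a share somewhat above the 21.4% of entries that were lower (22.3% were higher), and this difference was not tested.

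**Figure D3:**
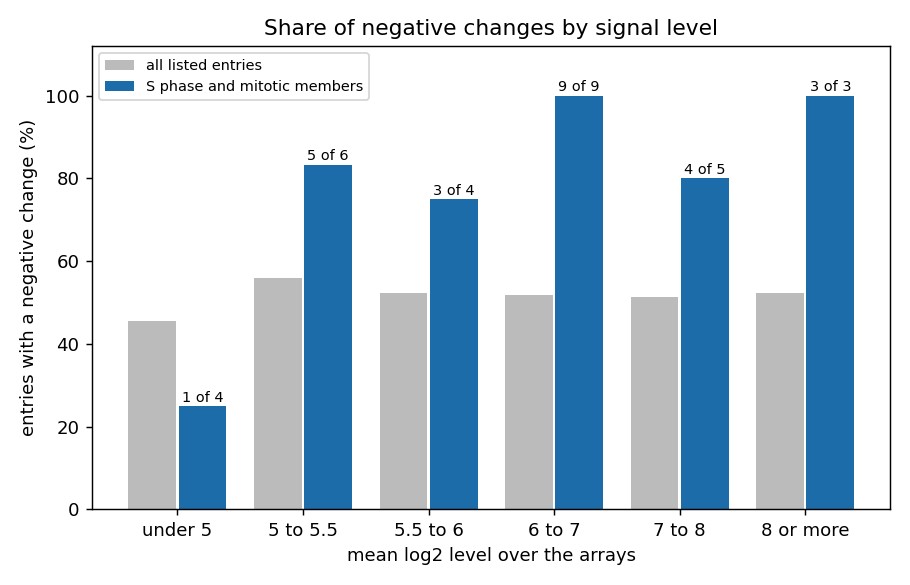
Share of entries with a negative log2 change (y axis, percent) in bins of the mean log2 level (x axis), for all listed entries (grey bars) and for S phase and mitotic members (blue bars, with counts), from the authors' deposited table. The share over all entries stays between 45.6% and 56.0%, while the members are negative for 9 of 9, 4 of 5 and 3 of 3 in the brightest bins and for 1 of 4 in the dimmest.

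Genes of the same processes outside the members were also more often negative than positive in the authors' deposited table. Of 65 other S phase genes 35 are listed and 26 were negative (median -0.13), and of 79 other mitotic genes 41 are listed and 30 were negative (median -0.16). None passed the adjusted test. Before adjustment 7 of each list were lower and 1 and 3 were higher in the authors' deposited table at p under 0.05. In both directions together these were shares of 22.9% and 24.4%, near the 19.9% of all entries. By direction, 10.6% of all entries were lower and 9.31% higher at that p, so the calls of both lists leaned more to the lower side. Among the S phase genes, the clamp loader gene Rfc2 was at -0.35 (p = 0.00219), the histone chaperone gene Nasp at -0.51 (p = 0.0046), the CTP synthase gene Ctps at -0.31 (p = 0.00686) and the polymerase delta subunit gene Pold3 at -0.43 (p = 0.0125) in the authors' deposited table.

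The mitotic genes with the smallest p went both ways. Cenpm, encoding a centromere protein, was at 0.82 in the authors' deposited table (p = 0.00145, adjusted p = 0.137) and did not pass. The cytokinesis kinase gene Cit was at -0.24 (p = 0.00452), the centrosome kinase gene Nek2 at 0.17 (p = 0.0146) and Cdca2, which targets a phosphatase to anaphase chromatin, at -0.49 (p = 0.0231) in the authors' deposited table. Cit and Nek2 were dim, with mean log2 levels of 4.84 and 4.88, while Cenpm was at 5.89 and Cdca2 at 6.5 in that table. At a mean log2 level of at least 6, 10 of 11 other mitotic genes and 9 of 13 other S phase genes were negative in the authors' deposited table. The one positive mitotic gene there was Fzr1, whose product activates the anaphase-promoting complex in G1, at 0.22 (p = 0.0349) in the authors' deposited table; it was singled out after its value was seen.

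Of 24 listed genes among other cell cycle regulators, 15 were negative in the authors' deposited table (median -0.09), and none passed the adjusted test, 4 (16.7%) being under 0.05 before adjustment, fewer than the 19.9% of all entries. Cdkn1c, encoding the CDK inhibitor p57KIP2, was at 0.77 (p = 0.0377) and Myc at 0.26 (p = 0.0152) in the authors' deposited table. Ccnc, a transcriptional cyclin gene, was at -0.25 (p = 0.0241) and the retinoblastoma gene Rb1 at -0.37 (p = 0.0495) in the authors' deposited table.

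**Figure D4:**
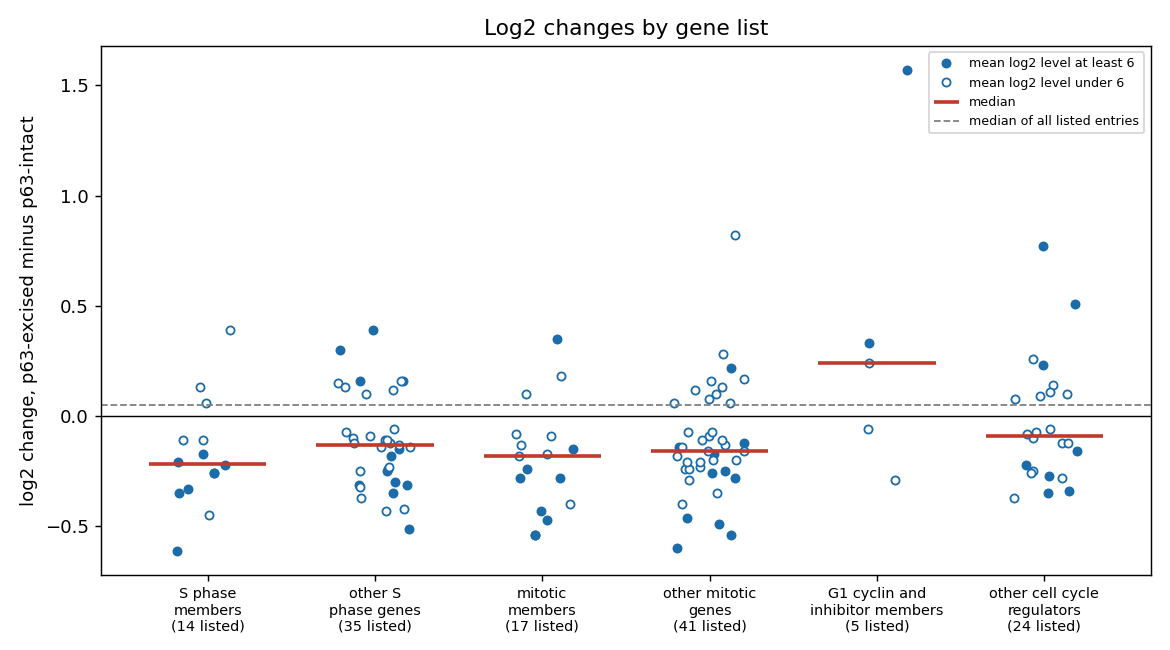
Log2 change (y axis) of each listed gene (points, filled at a mean log2 level of at least 6) for S phase, mitotic and G1 members and for other genes of the same processes, with each list's median (red line), from the authors' deposited table. Both S phase and both mitotic lists have medians between -0.215 and -0.13, below the median of all entries at 0.05.

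Whole-tumour RNA mixes tumour and host cells, so fewer cycling cells and less of a transcript per cell cannot be told apart. Of 21 keratinocyte markers, which a squamous carcinoma should express, 14 have a row in the authors' deposited table, among them the basal keratin gene Krt5 at a mean log2 level of 11.65. Of these 14 markers 8 were negative in the authors' deposited table (median -0.175), but at a mean log2 level of at least 6 it was 5 of 11, with a median of 0.09. Their values ran from -0.77 for Col17a1, a hemidesmosome gene and the only one of them past the adjusted test (adjusted p = 0.0487), to 1.70 for the differentiation keratin gene Krt10 (p = 0.0788) in the authors' deposited table. Skeletal muscle markers were positive for 23 of 23 listed genes in the authors' deposited table (median 0.44). Of these, 9 (39.1%) had an unadjusted p under 0.05, beside 19.9% of all entries. None of the muscle markers passed the adjusted test, and 18 had a mean log2 level under 6.

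Markers of blood and stroma had mixed signs. Among 7 listed erythroid markers 5 were negative in the authors' deposited table, and the globin genes Hbb-b1 and Hba-a1 stood at -2.32 and -2.13. Of 7 listed fibroblast markers 5 were negative in the authors' deposited table. The fibroblast matrix gene Fbln1, at -0.82 in the authors' deposited table, passed the adjustment made here over all probes, with an adjusted p of 0.0482. Of 13 listed myeloid markers 8 were negative in the authors' deposited table, with values from -1.73 for the macrophage gene Lyz2 to 0.53 for S100a8. The mean log2 level of S100a8, 12.14, was far above that of any other listed myeloid marker (Lyz2 came next at 8.55), and which cells it came from was not tested. Of 7 endothelial markers 4 were negative and of 8 lymphoid markers 3 were, in the authors' deposited table. Levels of these markers per tumour are not known from the files, and their part in the cell cycle values was not tested.

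**Figure D5:**
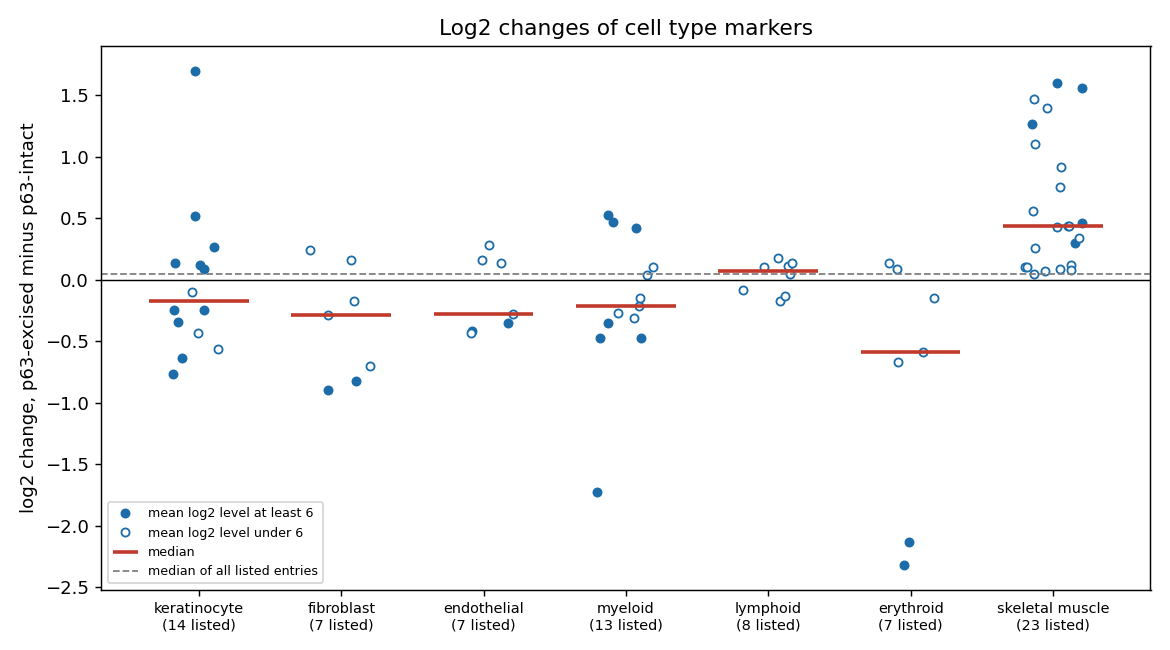
Log2 change (y axis) of each listed marker (points, filled at a mean log2 level of at least 6) of 7 cell types, with each list's median (red line), from the authors' deposited table. All 23 muscle markers lie above 0, and the 2 brightest erythroid markers lie below -2.

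Negative changes were found with and without the motif that marks each promoter class. Of 10 listed S phase members whose windows hold an E2F match, 7 were negative in the authors' deposited table (median -0.19), and both without one were negative. Of 10 listed mitotic members with a CHR match, 8 were negative in the authors' deposited table (median -0.21), and 3 of 4 without one (median -0.28).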

How the data were processed

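Illumina bead arrays were run on RNA of 6 whole tumours, per the labels' protocols. The authors deposited 3 tables. The first, per the file headers, holds signal intensities and detection p-values of 45281 probes; its arrays share a mean intensity of 131.42, so some scaling preceded deposit. The second holds the authors' normalized log2 intensities and is not used for any gene. The third, from which all gene values come, holds 16381 gene names with, per the file headers, the log2 change and mean log2 level, a signed fold, t and log-odds scores and a p-value of up to 0.462. How it was normalized and how probes became genes is not stated in the sources used; R 2.12.0 is named by the submitters' processing notes.

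Rows were found by deposited name, and all 59 members matched a RefSeq symbol (GRCm38.p6). Benjamini-Hochberg adjustment took all 45281 probes as tests, which is the most that could have been run. SE was the change divided by t, printed for changes of at least 0.2; pairs of t and p gave 6.69 degrees of freedom, and intervals are 2.39 SE wide on each side. The adjustment and this recovery were tested on simulated data. The number of arrays limits the precision. Members and lists were chosen with earlier results of these data known. All members are accounted for, and the 4 genes with the smallest p are named from each other cell cycle list. Ccnd1, Cdkn1a and Cdkn2d are named besides, with their values known, as relatives of members. The Cdkn2a stretches were added after its value was seen. A planned limma fit of member probes was not run, as no table paired probes with genes. The closing section gives the alternatives tried. Python 3.11.15, pandas 2.3.3, numpy 2.4.6 and scipy 1.17.1 were used.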

Additional observations from a re-analysis of the deposited data

How the results depend on the processing

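The count of members past the test was 0 with every probe as a test, 2 with the listed entries of the authors' deposited table as all tests (too lenient, since those were kept by their p), and 9 at an unadjusted p under 0.05. The share of negative changes among listed members, 75.0%, was 79.2% at a mean log2 level of at least 5.5, 84.2% at a level of at least 6, and 73.7% with older names added. The S phase median of -0.215 was -0.26 under both level filters and 0 with members not listed set to 0. The mitotic median of -0.18 was -0.28 under both filters and -0.085 with members not listed set to 0. The limma alternatives for member probes (other background corrections and normalizations, no filter on dim probes, array weights, each array left out) were not run. No paired analysis was possible because the members' values come from a table of changes without values per tumour.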

Other observations

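Replication-dependent histone genes, which are transcribed mainly in S phase, were not among the members, and their rows were examined after their values had been seen. Over all levels, 11 of 15 H2A rows and 2 of 11 H2B rows were negative in the authors' deposited table. At a mean log2 level of at least 6, 9 of 9 H2A rows were negative, from -0.57 (Hist1h2ah) to -0.36 (Hist1h2ao). At that level 4 of 4 H2B rows, 2 of 2 H3 rows and 1 of 1 H4 row were positive in the authors' deposited table, among them Hist1h2bj at 0.53 (p = 0.0167) and Hist1h2bf at 0.36 (p = 0.0128). Below that level the H2A rows Hist2h2aa2 and Hist2h2aa1 were positive, at 0.97 (p = 0.00128) and 0.56 (p = 0.0127) in the authors' deposited table, and they were the only H2A rows with a p under 0.05 before adjustment. No histone row passed adjustment over all probes. Histone genes of a family differ little in sequence, and a probe may read several, so the rows of a family do not count as separate measurements.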
